A study of Homo sapiens with 12 samples.

Results

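The 9 genes described here encode core components of the AKT and mTOR pathway: MTOR, RPTOR, RICTOR, TSC1, TSC2, RHEB, AKT1, AKT2 and RPS6KB1. They were chosen by name, as the kinase mTOR, a defining subunit of each of its complexes, its upstream brake and switch, the AKT kinases and a main substrate kinase, by a rule that uses no measured value, although earlier results of these data were known when they were chosen. Of the 9 genes, 8 had at least 1 site of N4-acetylcytidine (ac4C), cytidine that carries an acetyl group, and together they held 204 of the 100763 sites deposited for 10240 genes. The sites come from ac4C-RIP-seq, in which RNA fragments bound by an antibody against ac4C (IP) are sequenced beside the starting RNA (input). The cells were HK-2, a human cell line from the epithelium of the renal tubule, immortalised with papillomavirus genes. The 12 libraries form 3 NAT10 knockout (KO) and 3 wild-type control (WT) pairs of an IP and an input, and each pair gave 1 list of sites. NAT10 is the acetyltransferase that places ac4C on RNA. The sample labels call the altered cells a knockout and the series text a knockdown. No agent or time is given for either group, nor whether the altered cells are 1 clone. The labels do not say that the replicates were separate cultures, so each p-value measures only the spread between these lists, which may be technical.

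AKT is a kinase that is recruited to the membrane by the lipid product of PI3K when growth factors such as insulin bind their receptors. It phosphorylates TSC2, the subunit of the TSC complex that holds the small GTPase RHEB inactive, and active RHEB switches on mTOR complex 1, which drives protein synthesis through S6 kinase. mTOR complex 2 acts on the other side of this loop by phosphorylating AKT itself, and in the kidney tubule the pathway is known for its part in cell growth and in the response to injury.

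The lists held 13818, 17872 and 19136 sites in KO replicates 1, 2 and 3, against 17541, 17107 and 15289 sites in WT replicates 1, 2 and 3. They give no read counts, so the depth behind a site is unknown, and a site number is neither an RNA level nor a share of acetylated RNA. Fewer transcripts of a gene and less ac4C on each cannot be told apart by a missing site. NAT10 itself had 2, 5 and 9 sites in KO lists and 11, 11 and 8 sites in WT lists, so the groups overlap, and a site list does not measure the NAT10 protein or its transcript. Of 12 proximal tubule markers, 6 had a site in any list, among them LRP2, CUBN and ANPEP, with 3, 3 and 4 of them in KO lists and 4, 4 and 5 in WT lists. Among the markers without a site were SLC34A1, AQP1 and HNF4A. Of 5 epithelial markers, KRT8, KRT18 and KRT19 had a site and EPCAM and CDH1 had none, and of 11 markers of other kidney, stromal and blood cells 1 did, PDGFRB. The authors' false discovery rate, a percent that MACS gives each site, was above 50 for 62.4%, 68.1% and 43.2% of the sites in KO lists and for 92.8%, 92.1% and 91.9% of the sites in WT lists. This difference runs with genotype, and its part in the results below was not tested beyond the values given with these sites left out. In KO replicate 1 the coordinate columns stood in another row order than the gene columns and were rejoined, which placed 20 of the 21 sites of the 9 genes.

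MTOR had fewer sites in every KO list than in any WT list, and it was the only gene of the 9 whose site numbers did not overlap between the genotypes. The same pattern of fewer sites in every KO list held for 23.1% of all genes with a site, the opposite pattern for 23.7% and either for 46.8%, beside 1 lower and 0 higher of the 8 genes with a site here. Without KO replicate 3 the numbers of 5 genes did not overlap (MTOR, RPTOR, RICTOR, TSC1 and TSC2, all lower in KO), where 27.5% of all genes were lower in this way. Without WT replicate 3 it was 3 genes (MTOR, TSC2 and AKT2, lower in KO), against 27.7% of all genes. Without KO replicate 1 it was MTOR, lower in KO as were 23.7% of all genes, and AKT1, higher in KO as were 31.6%. On average 5 of the 9 genes had fewer sites in KO lists, 3 had more and RHEB had none in any list. Of all 10240 genes with a site, 4536 (44.3%) had fewer on average and 4908 had more. The median difference in site number, KO minus WT, was -0.67 sites over the 8 genes with a site and 0 over all genes. Together the 9 genes had 21, 27 and 35 sites in KO lists, against 41, 44 and 36 in WT lists, a mean of 27.7 ± 7.02 in KO and 40.3 ± 4.04 in WT (SD, n = 3 lists each). Every KO list lay below every WT list in this total. MTOR supplied -9.33 of the difference of -12.7 sites between these means, and without it the totals were 19, 22 and 31 sites in KO lists and 29, 29 and 24 in WT lists, which overlap. Relative to the length of the list, the 9 genes had 15.2, 15.1 and 18.3 sites per 10000 in KO lists and 23.4, 25.7 and 23.5 per 10000 in WT lists. Of the 9 genes, 7, 7 and 8 had a site in KO lists and 8, 8 and 7 in WT lists, which overlap. A total of 6 genes had a site in all 6 lists, as did 39.0% of all genes. Kept to sites with a false discovery rate of at most 50%, the 9 genes had 9, 10 and 19 sites in KO lists and 1, 1 and 1 in WT lists, the opposite direction. At that setting 6 of them were higher in every KO list and 0 lower, and of all genes with a site left 43.7% were higher and 4.36% lower.

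**Figure D1:**
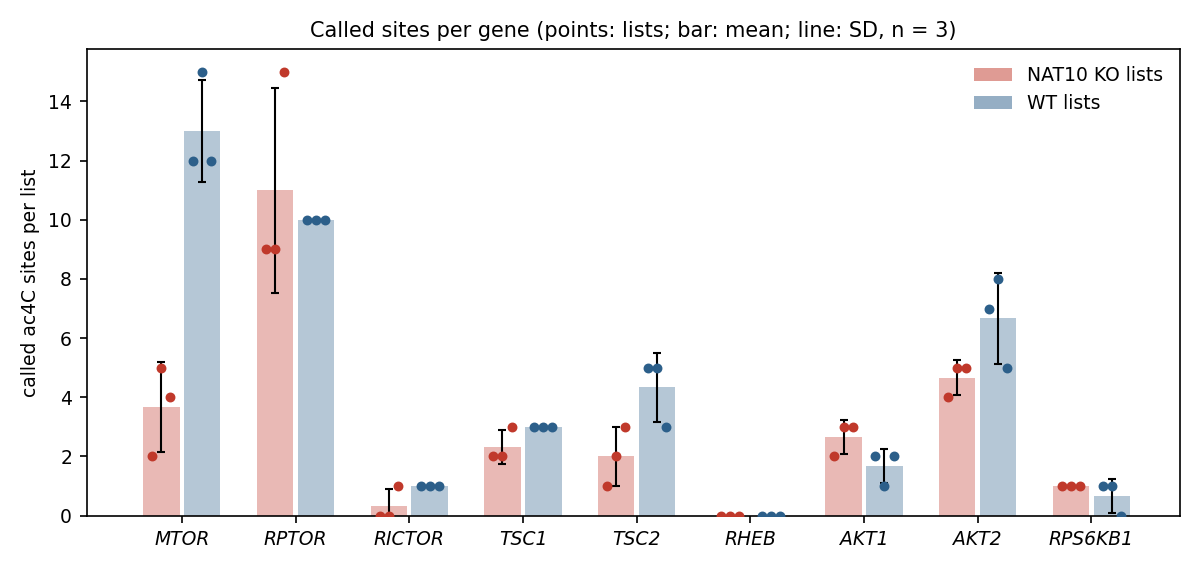
Number of ac4C sites in each list (vertical axis, sites per list) for each of the 9 genes, with KO lists left of WT lists, a point per list, a bar for the mean and a line for the SD. MTOR's 2, 5 and 4 sites in KO lists lie below its 12, 15 and 12 sites in WT lists, RPTOR's and AKT1's points overlap between genotypes, and RHEB has no point above 0.

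MTOR (GeneID 2475) encodes the kinase that is the catalytic subunit of both mTOR complexes. It had 2, 5 and 4 sites in KO lists, against 12, 15 and 12 sites in WT lists, a mean of 3.67 ± 1.53 in KO and 13 ± 1.73 in WT (SD, n = 3 lists each). The lowest WT list thus held more MTOR sites than the KO list with the most. The difference of -9.33 sites had p = 0.1 in the two-sided exact permutation test, the smallest that 3 lists against 3 can give, and an adjusted p of 0.214 over all genes, so it did not pass 0.05. Only 5 genes, MTOR among them, had a difference at or below this one. Of the 55 genes with a mean of at least 10 sites in WT lists, 28 (50.9%) had fewer sites in every KO list. This set was chosen after its values were seen and by the WT lists alone. Such a choice favours genes with fewer sites in KO, so the share is no background for MTOR. Per 10000 sites of the list, MTOR had 1.45, 2.8 and 2.09 sites in KO lists and 6.84, 8.77 and 7.85 in WT lists, which do not overlap either. The direction turned when only sites with a false discovery rate of at most 50% were kept. This left MTOR 1, 1 and 1 sites in KO lists and 0, 0 and 0 in WT lists. The lowest rate of any site was 14.1%, 16.1% and 11.3% in KO lists and 42.6%, 38.9% and 29.2% in WT lists. The cut thus falls harder on WT lists for any gene, and the turn cannot be read as a result about MTOR.

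Merging overlapping sites of all 6 lists gave 19 regions in MTOR, of which 7 had a site in all 3 WT lists and no KO list, 1 the reverse, and 1 had a site in all 6 lists. Of all regions, 21.8%, 20.9% and 8.07% were of these 3 kinds. The fold in each region is the authors' ratio of IP over input for that site, which describes the site within its own list and was not compared between lists. The region in all 6 lists, in the coding sequence (CDS) at chr1:11313896-11314030, had the same coordinates in every list and folds of 15.51, 21.76 and 28.56 in KO lists and 45.66, 27.15 and 36.64 in WT lists. Nearer the start of the gene, the CDS region at chr1:11316990-11317153 had folds of 41.05, 38.87 and 38.38 in the WT lists and no site in any KO list. A region called in both genotypes and one called only in WT thus lay close together. Another of the WT-only regions was in the CDS at chr1:11168238-11168311 with folds of 26.48, 21.16 and 16.77, and one at the stop codon at chr1:11166617-11167545 had folds of 4.55, 3.85 and 3.57. The lone region in all KO lists and no WT list was at chr1:11199364-11199492, with folds of 5.52, 3.33 and 4.73. These folds exceeded only 31.7%, 10.5% and 26.8% of the sites of their lists, and those at the stop codon 24.6%, 16.5% and 11.3%. False discovery rates were 100%, 100% and 61.82% in the KO-only region and 57.37%, 64.01% and 100% at the stop codon. Coordinates here are those of the deposited files. The notes name hg38, but only 34 of 203 sites of these genes lay inside the RefSeq span of their gene in GRCh38, so the build is not settled and no sequence is shown.

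**Figure D2:**
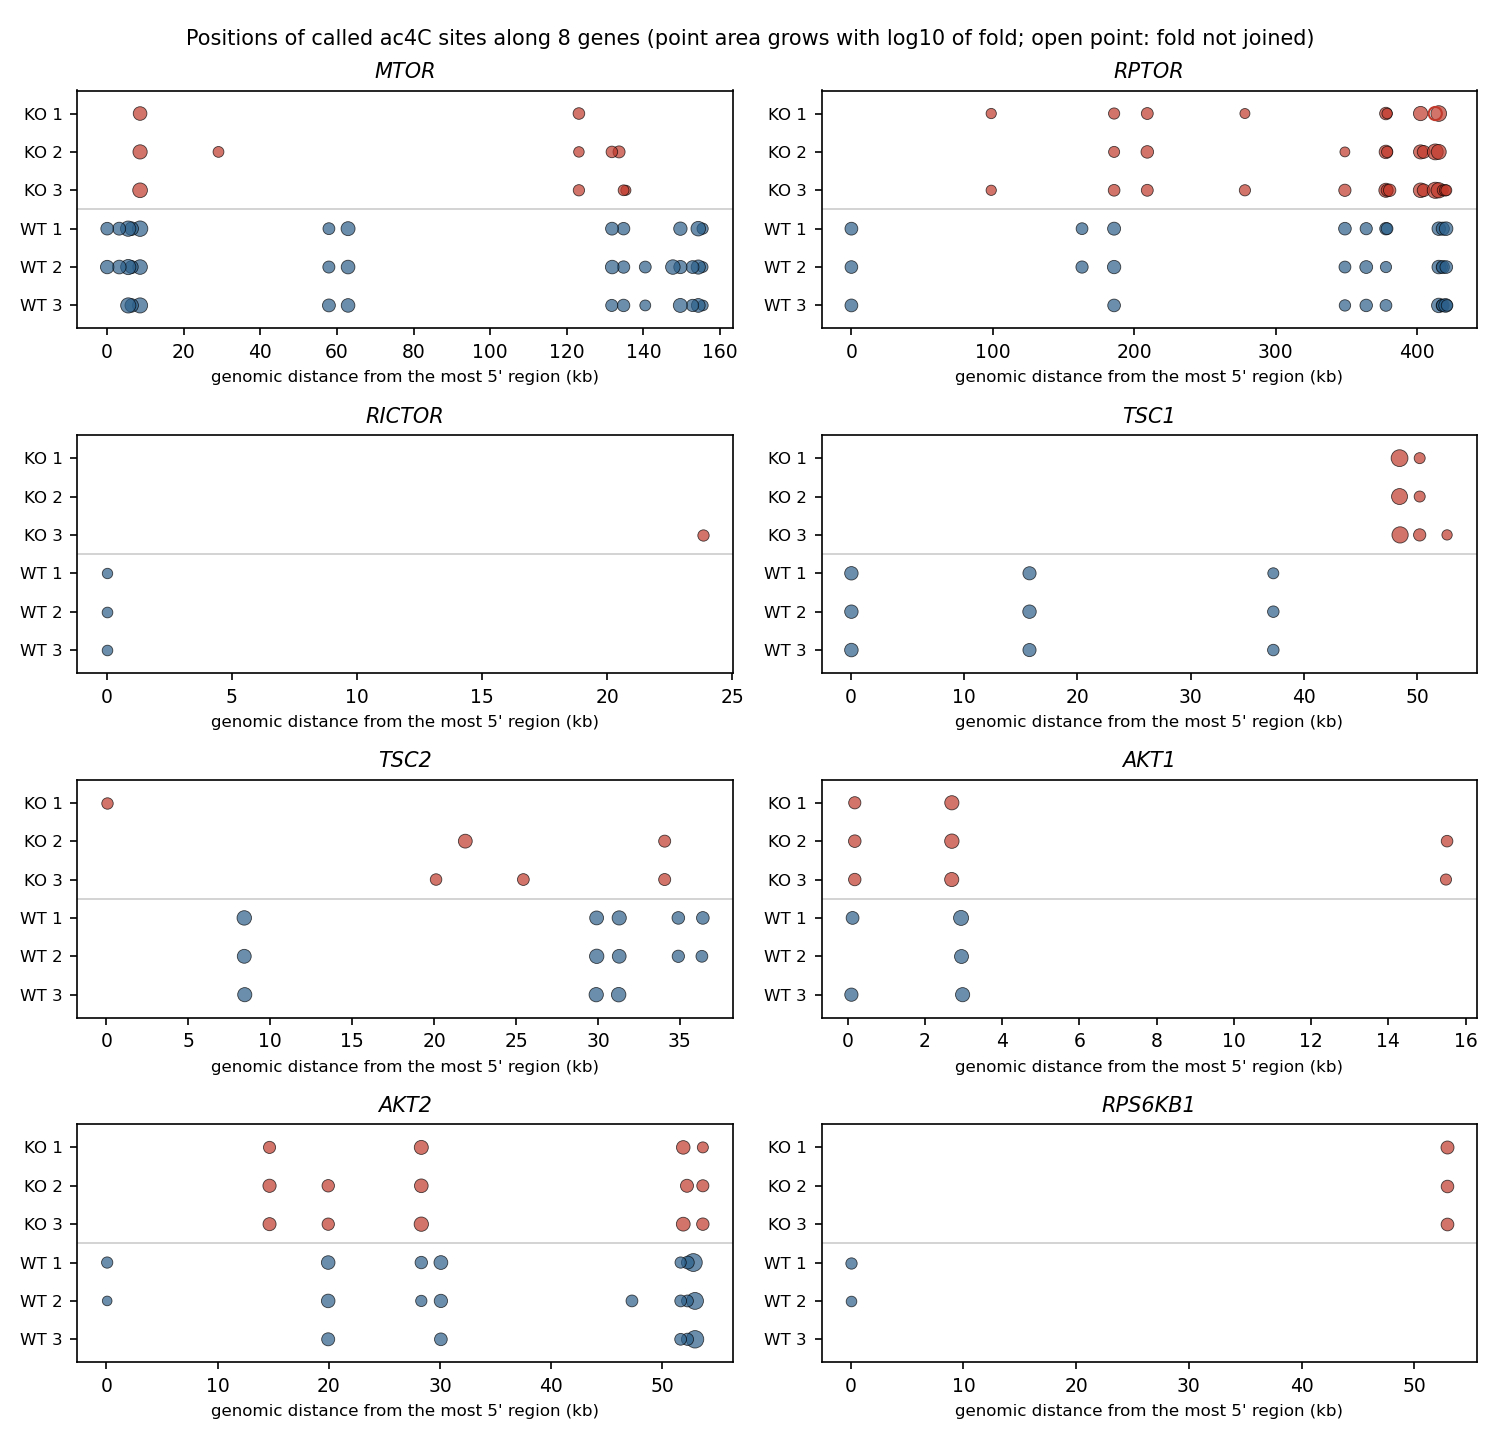
Regions with ac4C sites along the genes, plotted as genomic distance in kilobases from the most 5′ region of each gene, with a row per list and KO rows above WT rows. Point area grows with log10 of the fold, and an open point has no joined fold. MTOR shows 1 region filled in all 6 rows and 7 that are filled only in the 3 WT rows, whereas RPTOR has regions filled only in KO rows.

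RPTOR (GeneID 57521) encodes raptor, which presents substrates to mTOR in complex 1. It had 9, 9 and 15 sites in KO lists, against 10, 10 and 10 in WT lists, a mean of 11 ± 3.46 in KO and 10 ± 0 in WT (SD, n = 3 lists each). KO replicate 3 stood highest and the other KO lists lay just below WT, so the groups overlap, with p = 1 in the two-sided exact permutation test. The sign turns without KO replicate 3, to a difference of -1. Of its 18 regions, 3 had a site in all KO lists and no WT list, 2 the reverse and 3 a site in all 6 lists. Of all regions, 20.9%, 21.8% and 8.07% were of these kinds. The KO-only CDS region at chr17:78921027-78921151 had folds of 22.17, 20.11 and 26.91. A second, at chr17:78931424-78931530, had folds of 59.47 and 69.78 in KO replicates 2 and 3. In KO replicate 1 this region held a site too, but which fold belongs to it was not settled by the join, and RPTOR's unplaced row there has a fold of 87.21. In the WT-only direction stood a 5′ UTR region at chr17:78518619-78518828 with folds of 9.92, 9.23 and 9.92. The region at chr17:78933878-78934005, in all 6 lists, had folds of 52.1, 32.98 and 41.45 in KO lists and 14.4, 14.75 and 25.12 in WT lists.

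RICTOR (GeneID 253260) encodes rictor, the subunit that defines mTOR complex 2. It had few sites in any list, with 0, 0 and 1 in KO lists and 1, 1 and 1 in WT lists, and KO replicate 3 overlaps WT. Its difference of -0.67 sites had p = 0.4 in the two-sided exact permutation test and an adjusted p of 0.578 over all genes. The site in the WT lists was the same CDS region of 34 bases at chr5:38964961-38964994, with folds of 3.19, 3.59 and 3.46. The lone KO site lay elsewhere, in the 3′ UTR at chr5:38940968-38941360, with a fold of 4.81. No RICTOR site in either genotype had a false discovery rate below 83.76%.

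TSC1 (GeneID 7248) encodes hamartin, which stabilises TSC2 in the complex that restrains RHEB. It had 2, 2 and 3 sites in KO lists, against 3, 3 and 3 in WT lists, which overlap through KO replicate 3 (p = 0.4, two-sided exact permutation test). None of its 6 regions had a site in both genotypes, and of all regions 80.9% had sites in lists of only 1 genotype. In all KO lists and no WT list stood a region at the stop codon, chr9:135771311-135771843, with folds of 110.45, 62.35 and 76.08, and a 3′ UTR region at chr9:135769699-135769900 with folds of 4.13, 4.21 and 7.57. In all WT lists and no KO list stood a 5′ UTR region at chr9:135819930-135820018 with folds of 13.96, 13.82 and 14.67. The other WT-only regions were labelled start codon, at chr9:135804154-135804342 with folds of 11.96, 13.99 and 11.83, and CDS, at chr9:135782688-135782757 with folds of 4.18, 5.21 and 5.26. A part label such as start codon belongs to the transcript named beside the site, which for this and a few other sites is not the transcript named for the rest of the gene.

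TSC2 (GeneID 7249) encodes tuberin, the subunit that acts on RHEB and that AKT phosphorylates. It had 1, 2 and 3 sites in KO lists, against 5, 5 and 3 in WT lists, a mean of 2 ± 1 in KO and 4.33 ± 1.15 in WT (SD, n = 3 lists each). KO replicate 3 and WT replicate 3 share the value 3, so the groups meet there. The difference of -2.33 sites had p = 0.2 in the two-sided exact permutation test and an adjusted p of 0.404 over all genes. All 10 of its regions were in the CDS, and none had a site in both genotypes, beside the 80.9% of all regions seen in only 1. Of these, 3 had a site in all WT lists and no KO list, at chr16:2108748-2108874 with folds of 24.95, 18.1 and 20.67, at chr16:2130210-2130378 with folds of 17.44, 23.4 and 22.53, and at chr16:2131596-2131799 with folds of 21.27, 16.9 and 25.18. No region was in all 3 KO lists. No TSC2 site in either genotype had a false discovery rate below 53.05%. RHEB (GeneID 6009), the small GTPase that activates mTOR complex 1, had no site in any of the 6 lists, which without depth gives no upper limit on its ac4C.

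AKT1 (GeneID 207) encodes a broadly expressed AKT kinase. It had 2, 3 and 3 sites in KO lists, against 2, 1 and 2 in WT lists, a mean of 2.67 ± 0.577 in KO and 1.67 ± 0.577 in WT (SD, n = 3 lists each). The groups share the value 2 and so overlap, and the difference of 1 site had p = 0.3 in the two-sided exact permutation test, with an adjusted p of 0.559 over all genes. Its region at the start codon, chr14:105258935-105259700, had a site in all 6 lists, with folds of 21.3, 23.87 and 20.6 in KO lists and 34.46, 18.37 and 20.84 in WT lists. The called site was longer in KO, at 759, 759 and 766 bases in KO lists and 282, 309 and 202 bases in WT lists. A site in the CDS at chr14:105246425-105246553 was called in KO replicates 2 and 3 only.

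AKT2 (GeneID 208) encodes the AKT kinase most tied to the insulin response. It had 4, 5 and 5 sites in KO lists, against 7, 8 and 5 in WT lists, a mean of 4.67 ± 0.577 in KO and 6.67 ± 1.53 in WT (SD, n = 3 lists each). WT replicate 3 shares the value 5 with KO lists, so the groups overlap (p = 0.3, two-sided exact permutation test). In KO lists the AKT2 site with the highest fold was in the CDS at chr19:40762833-40762961, with folds of 19.05, 15.79 and 22.9 in KO lists, 8.15 and 4.7 in WT replicates 1 and 2 and no site in WT replicate 3. In WT lists it was in a region at the stop codon and 3′ UTR, chr19:40738133-40739858, which had a site in all 6 lists. The highest fold in this region was 14.78, 11.13 and 17.18 in KO lists and 228.53, 114.94 and 172.6 in WT lists. The WT folds exceeded those of 98.3%, 97% and 97.2% of the sites of the same list. The sites within this region lay in different places: the WT sites with these folds started at bases 40738133, 40738137 and 40738134, while the sites of KO replicates 1 and 3 started at 40738813 and only the long site of KO replicate 2, from 40738141, covered that stretch. Of the gene's 8 regions, 2 were in all KO lists and no WT list, in the 3′ UTR at chr19:40737454-40737691 with folds of 4.17, 6.95 and 8.23 and in the 5′ UTR at chr19:40776418-40776676 with folds of 7.06, 12.28 and 11.38. The reverse held for 1, in the CDS at chr19:40761065-40761206, with folds of 16.94, 12.87 and 9.46. Of all regions, 20.9% were in all KO lists and no WT list, and 21.8% the reverse.

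RPS6KB1 (GeneID 6198) encodes S6 kinase 1, which mTOR complex 1 activates. It had 1 site in each KO list and 1, 1 and 0 sites in WT lists, so the groups overlap (p = 1, two-sided exact permutation test). The sites were in different places, beside the 80.9% of all regions with sites in lists of only 1 genotype. All 3 KO sites lay at the stop codon, chr17:58023922-58024220, with folds of 11.08, 8.89 and 9.63, and both WT sites in the 5′ UTR at chr17:57971157-57971285 with folds of 4.77 and 3.45.

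**Figure D3:**
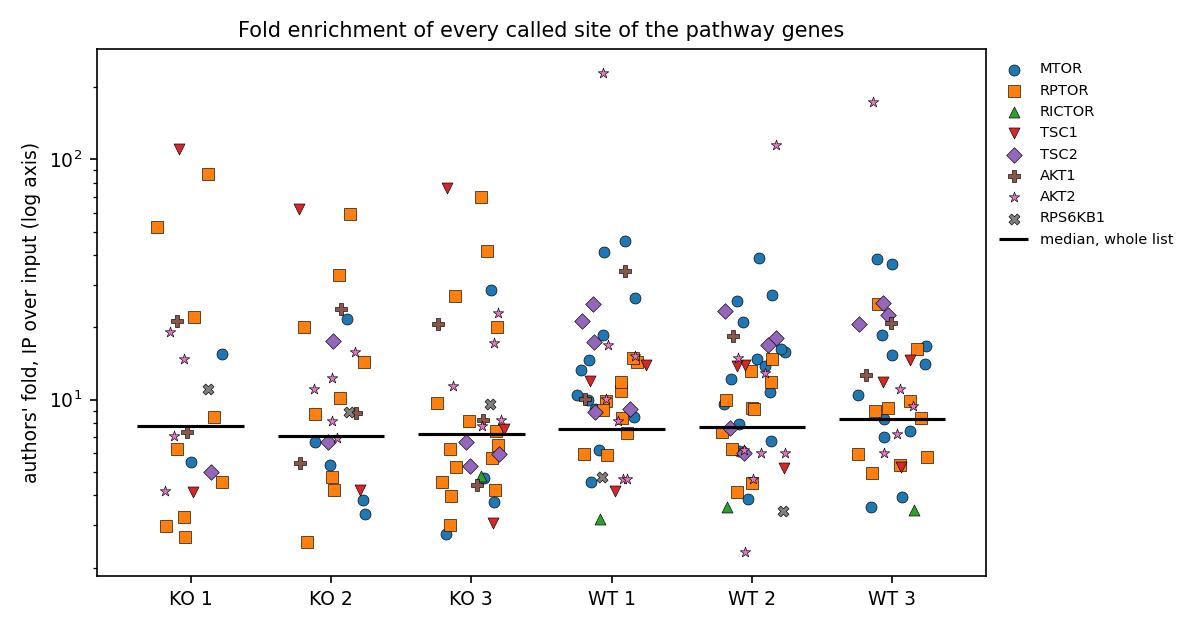
Fold of IP over input as the authors' caller gave it (vertical axis, log scale) for every site of the 8 genes with a site, with KO lists left of WT lists, a point per site shaped by gene and a black line at the median of the whole list. AKT2 reaches 228.53 in a WT list and TSC1 reaches 110.45 in a KO list, and folds describe sites within a list only.

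Taken by place rather than by number, the sites of the 9 genes formed 68 regions, none of which held a site named for another gene. A site in all KO lists and no WT list was found in 9 of them (13.2%), against 20.9% of all 35919 regions. The reverse, all WT lists and no KO list, was found in 17 (25%), against 21.8% of all regions, and all 6 lists shared 6 (8.82%), against 8.07%. Sites in lists of only 1 genotype, whether in all of them or not, were found in 53 regions (77.9%), against 80.9% of all regions. The WT-only and shared percentages lie near those of all regions, and the KO-only one below. With sites kept at a false discovery rate of at most 50%, 7 KO-only, 1 WT-only and 0 shared regions were left. Of the 29 regions that every WT list shared, 17 (58.6%) lacked a site in all KO lists, and the same held for 62.1% of all such regions. Conversely, 18 regions were shared by every KO list, and 9 of these (50%) lacked a WT site, against 65.2% of all such regions.

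By transcript part, the CDS held 12, 16 and 21 sites of these genes in KO lists and 25, 29 and 23 in WT lists, and every KO list lay below every WT list. MTOR held 2, 4 and 4 of these sites in KO lists and 8, 11 and 10 in WT lists. Without MTOR the CDS numbers overlap between the genotypes. The CDS share of the placed sites was 60%, 59.3% and 60% in KO lists and 61%, 65.9% and 63.9% in WT lists. Over all sites of the lists it averaged 56.2% in KO and 56.6% in WT. In KO replicate 1 the unplaced RPTOR row is not counted, though a CDS region of RPTOR held a site there without a joined fold. That 60% may thus be too low, and the gap to 61% in WT replicate 1 is not secure. The difference of -3.84 percentage points between the genes' mean shares became 52.5 at a false discovery rate of at most 50%, where each WT list held 1 site. The 5′ UTR held 2, 2 and 2 sites in KO lists and 6, 5 and 3 in WT lists. As a share of the sites the 5′ UTR overlapped, with 10%, 7.41% and 5.71% in KO lists and 14.6%, 11.4% and 8.33% in WT lists. The stop codon held 3, 3 and 4 sites in KO lists and 3, 2 and 2 in WT lists, which overlap. As a share these were 15%, 11.1% and 11.4% in KO lists and 7.32%, 4.55% and 5.56% in WT lists, which do not overlap, while over all sites the stop codon averaged 13.4% in KO and 13.7% in WT. The 3′ UTR held 2, 2 and 5 sites in KO lists and 2, 3 and 4 in WT lists, which overlap in number. As a share it averaged 10.6% in KO and 7.6% in WT, and over all sites 8.76% in KO and 9.97% in WT. Of the 9 KO-only regions 4 were at the stop codon or in the 3′ UTR, in TSC1, AKT2 and RPS6KB1, and of the 17 WT-only regions 1 was, in MTOR. The same shares over all KO-only and all WT-only regions were not computed, so no shift by genotype can be read from these counts. The median fold of the genes' sites was 7.32, 8.77 and 7.44 in KO lists, where the whole lists had 7.8, 7.03 and 7.23, and 10, 10.4 and 10.2 in WT lists, where the whole lists had 7.57, 7.68 and 8.32.

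**Figure D4:**
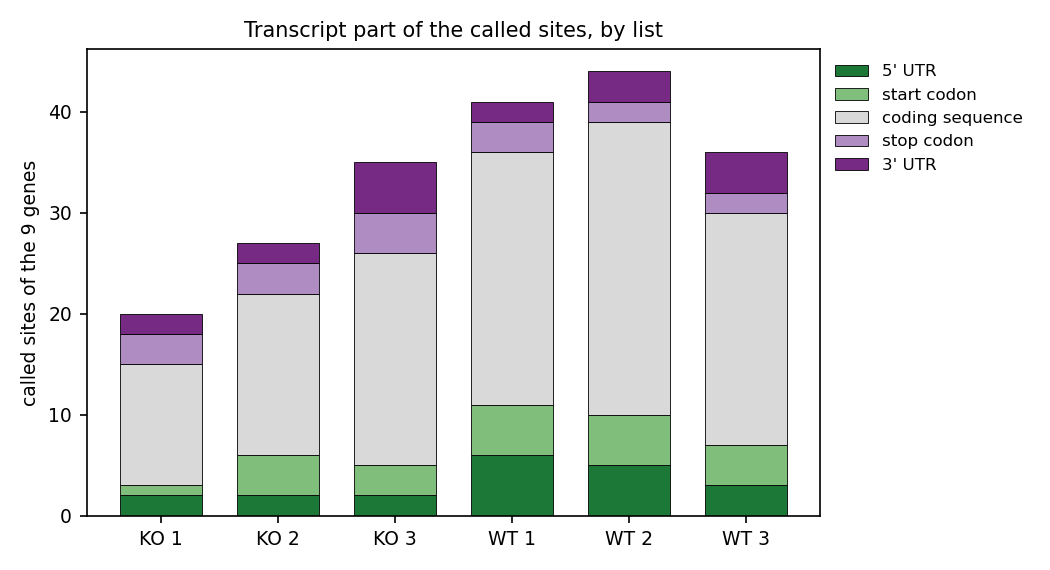
Number of placed sites of the 9 genes (vertical axis) in each list, as a stacked bar coloured by transcript part, with KO lists left of WT lists. The grey CDS segments hold 12, 16 and 21 sites in KO lists and 25, 29 and 23 in WT lists, and the 5′ UTR segments 2, 2 and 2 in KO lists and 6, 5 and 3 in WT lists.

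The rest of the pathway was read from 6 lists holding 115 other genes, of which 91 had a site. Of these 91, 17 (18.7%) had more sites in every KO list than in any WT list and 23 (25.3%) had fewer, against 23.7% and 23.1% of all genes, and their median difference was 0. Each of these 40 genes had p = 0.1 in the two-sided exact permutation test, the smallest possible, and an adjusted p of 0.214 over all genes. A site in every KO list and no WT list was found for 11 of the 91, against 14.9% of all genes, and the reverse for 11, against 11.8%. Among the regulators of PI3K and AKT, 26 of 30 genes had a site, 4 with more and 7 with fewer in KO. IRS1, the adaptor of the insulin receptor, had no site in KO lists and 2, 1 and 2 sites in WT lists. PIK3CB, a catalytic subunit of PI3K, likewise had 0 in KO lists and 2, 2 and 2 in WT lists. INPPL1, a lipid phosphatase that acts on the product of PI3K, had 0, 0 and 1 sites in KO lists and 3, 3 and 4 in WT lists. Of 2 related phosphatases that act on AKT, PHLPP1 had 0, 2 and 2 sites in KO lists and 4, 4 and 4 in WT lists, and PHLPP2 had 1, 1 and 1 in KO lists and none in WT lists. TRIB3, a pseudokinase that binds AKT, had 4, 3 and 4 sites in KO lists and 0, 1 and 1 in WT lists.

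Of the other subunits, binding partners and assembly factors of the mTOR complexes, 8 of 9 had a site, 3 with more sites in every KO list and 0 with fewer. These are 37.5% and 0% of the 8, against 23.7% and 23.1% of all genes with a site. PRR5L, a protein that binds mTOR complex 2, had 3, 4 and 4 sites in KO lists and none in WT lists, and its relative PRR5 had 3, 3 and 3 in KO lists and 1, 1 and 1 in WT lists. Around the TSC complex and the energy sensor AMPK, 10 of 13 genes had a site, 1 with more and 7 with fewer in KO, and the median difference over the 10 was -1 site. These are 10% and 70%, beside the same shares of all genes. The 70% is the highest lower share among the 6 lists of other pathway genes, and its departure from all genes was not tested. TBC1D7, the third subunit of the TSC complex, had 1, 1 and 1 sites in KO lists and 4, 4 and 4 in WT lists. PRKAA1, a catalytic subunit of AMPK, had none in KO lists and 2, 2 and 1 in WT lists, whereas the regulatory subunit PRKAB1 had 2, 3 and 2 in KO lists and none in WT lists. STRADA, which activates the AMPK kinase LKB1, had 0, 0 and 1 sites in KO lists and 4, 4 and 4 in WT lists. The AMPK subunits PRKAB2 and PRKAG1 had 1 site in each WT list and none in KO lists.

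In amino acid sensing, 19 of 29 genes had a site, 3 with more and 5 with fewer in KO. These are 15.8% and 26.3%, against 23.7% and 23.1% of all genes with a site. NPRL3, part of the GATOR1 complex that inhibits mTOR complex 1, had 2, 2 and 3 sites in KO lists and 7, 7 and 6 in WT lists. WDR24 of GATOR2 had none in KO lists and 2, 2 and 2 in WT lists, whereas the folliculin partners FNIP1 and FNIP2 had 2, 3 and 3 sites and 2, 3 and 4 sites in KO lists and none in WT lists. Of the targets of mTOR complex 1, 17 of 20 had a site, 4 with more (23.5%) and 2 with fewer (11.8%) in KO. ULK1, the kinase that starts autophagy, had 2, 6 and 5 sites in KO lists and 1, 1 and 0 in WT lists. EIF4E, which binds the messenger RNA cap, had 1, 2 and 1 in KO lists and none in WT lists, and TFE3, a transcription factor of lysosomal genes, had none in KO lists and 4, 2 and 3 in WT lists. Among targets of AKT and mTOR complex 2, 11 of 14 genes had a site, 2 with more and 2 with fewer in KO (18.2% each). SGK2, a kinase related to AKT, had 6, 6 and 5 sites in KO lists and 2, 2 and 2 in WT lists, and BAD, a promoter of cell death that AKT inhibits, had none in KO lists and 4, 4 and 4 in WT lists. FOXO1, a transcription factor that AKT keeps out of the nucleus, had 1 site in each KO list and none in WT lists.

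**Figure D5:**
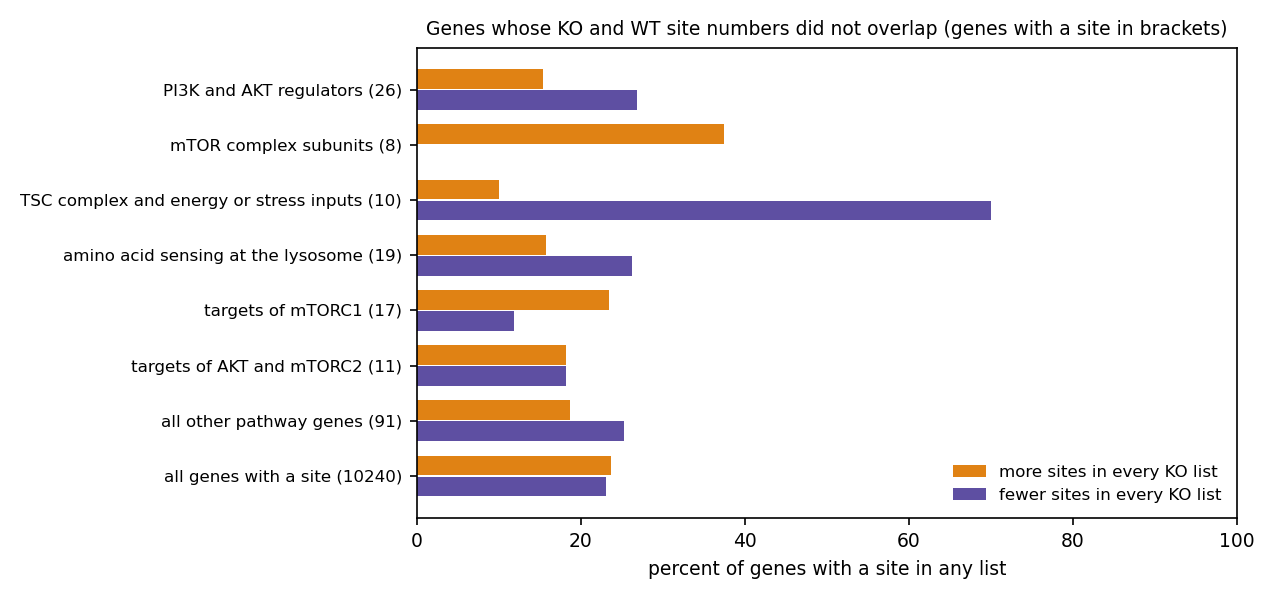
Percent of the genes with a site (horizontal axis) that had more sites in every KO list than in any WT list (upper bar) or fewer (lower bar), for each list of other pathway genes and for all genes. The 91 other pathway genes have bars at 18.7% and 25.3%, beside 23.7% and 23.1% for all genes. The list around the TSC complex has the longest lower bar, at 7 of 10 genes. The list labelled mTOR complex subunits also holds binding partners and assembly factors.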

How the data were processed

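The authors deposited 1 site list per pair of IP and input, 6 in all, with no pooling of replicates. Per the file headers, the caller was MACS; its version is not stated in the sources used here. HISAT2 2.0.4, cutadapt 1.9.3 and hg38 are named, without role or order, per the submitters' processing notes. The deposited score is -10 times the log10 of the p-value that MACS gave the site, and was at least 50. The deposited fold is the authors' ratio of IP over input, at least 2, and the deposited false discovery rate is the authors' percent per site. Over the lists 17 lines are empty in the copies used here.

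The members and gene lists were chosen with earlier results of these data known. The named genes were all 9 members, NAT10 and, of the other pathway genes, those called in every list of 1 genotype and in no list of the other, or with means at least 2 sites apart without overlap; the text gives examples of these. In KO replicate 1, 13344 of 13818 rows were rejoined on equal score and length, ties settled by chromosome, and 99.9% then lay on their gene's chromosome. On WT lists shuffled the same way, 99.1% to 99.3% of rows were joined, all to the right gene. Sites overlapping by at least 1 base formed a region. Site numbers were compared by two-sided exact permutation tests with Benjamini-Hochberg adjustment over 10240 genes. Python 3.11.15, pandas 2.3.3, numpy 2.4.6, scipy 1.17.1 and matplotlib 3.10.9 were used.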

Additional observations from a re-analysis of the deposited data

How the results depend on the processing

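Each result was recomputed with a fold of at least 4, a false discovery rate of at most 50%, a score of at least 100, lists shortened to 13818 sites by score and each list left out. The regions were also recomputed with a 50% overlap of the shorter site, the site numbers with updated symbols, and the regions and the CDS share (the CDS share added after seeing the data) with KO replicate 1 as it stands. The false discovery rate turned several directions. It left out 92.8%, 92.1% and 91.9% of all WT sites, against 62.4%, 68.1% and 43.2% of all KO sites. Turns under it therefore cannot be read as results about these genes. The total difference, KO minus WT, became 11.7 sites (-12.7 as reported) and the CDS share difference 52.5 percentage points (-3.84). The difference became 1 for MTOR, 1.33 for TSC1, 2 for AKT2 and 0 for RICTOR and TSC2. At this rate 6 genes did not overlap, all higher in KO, against 43.7% of all genes higher and 4.36% lower. The genes with a site differed by 5, and KO-only regions numbered 7 (9 as reported), WT-only 1 (17) and shared 0 (6). A fold of at least 4 gave 1 for the genes with a site, -1 for RPTOR and 0.333 for RICTOR, a score of at least 100 gave 0 for the genes with a site and -0.667 for RPTOR, and lists of equal length gave 0.333 for the genes with a site. Each of these 3 settings left 2 genes without overlap, both lower in KO, beside 23.4%, 23.1% and 24.1% of all genes lower in this way. KO replicate 1 as it stands gave 22 KO-only regions in place of 9. Other pathway genes without overlap numbered 39 at a fold of at least 4 and 32 at a false discovery rate of at most 50%. They numbered 43 at a score of at least 100, 46 with lists of equal length and 42 with updated symbols. Their directions under these settings are not given here. Leaving out 1 list gave totals from -16.3 to -9.33, genes with a site from -0.667 to -0.167, CDS shares from -5.15 to -2.68, 1 to 5 genes without overlap (5 without KO replicate 3), 42 to 50 other pathway genes without overlap (40 as reported), MTOR from -10 to -8.33, RPTOR from -1 to 2, KO-only regions from 9 to 12, WT-only regions from 17 to 24 and shared regions from 6 to 8. With 1 list left out, 24.6% to 31.6% of all genes were higher in KO without overlap and 23.7% to 27.7% lower, against 23.7% and 23.1% as reported. Same-numbered lists showed no sign of pairing (correlations of their deviations -0.0845, 0.00274 and -0.0779). Deviations from a mean of 3 lists cannot exclude a shared batch, however. Treating same-numbered lists as pairs cannot change the total difference of -12.7, because it equals the mean of the paired differences. It is no further check, and 3 pairs allow no p below 0.25. No list gives read counts, so depth limits every count of sites by an unknown amount.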
